A study of Rattus norvegicus with 4 samples.

Results

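A set of 9 target genes of the transcription factor p53 were examined in primary rat Schwann cells (SCs), the glia of peripheral nerves, after expression of the Egr2 promoter antisense RNA (Egr2-AS). The 9 genes, Mdm2, Ccng1, Gadd45a, Sesn2, Zmat3, Fas, Bax, Bbc3 and Phlda3, were taken by symbol from the 17949 genes of an RNA-seq count table, and all 9 passed the filter on low counts. They were chosen with the difference between the groups already known, so their differences between the groups are a description and are not independent evidence. SCs from sciatic nerve were grown in 10% FBS with 4 μM forskolin and 5 ng/ml heregulin-β1 and infected for 48 h, at 2 UFC per cell, with a lentivirus expressing Egr2-AS (Lenti-AS, n = 2) or with a backbone virus carrying GFP (Lenti-GFP, n = 2). Both groups were therefore infected and exposed to the same mitogens, and no uninfected cells were analysed here. The Egr2-AS vector carries a DsRed reporter and the control vector AcGFP1, so the antisense RNA and the reporter cannot be told apart as a source of a difference. The labels call the samples biological replicates without saying whether they came from separate animals, so the spread between them may be partly technical.

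The p53 protein is a transcription factor that is held at a low level by Mdm2, the ubiquitin ligase that marks it for degradation, and that is stabilised by DNA damage and other stress. It then switches on genes that stop the cell cycle, repair DNA, limit oxidative stress and start cell death, and Mdm2 itself is one of them, which closes a feedback loop. The activity of p53 is set largely at the level of the protein, which was not measured here. Many of these targets also respond to other factors. Sesn2, for example, is induced by Atf4 when amino acids are short.

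The sequences in front of 2 of the genes carry the DNA letters that p53 binds, and are shown to place the counts beside the promoters. Of the 9 genes, 6 (Mdm2, Ccng1, Gadd45a, Sesn2, Fas and Phlda3) had a RefSeq promoter on the GRCr8 build, from 250 bases before to 50 bases after the start of the gene. The p53 half-site consensus, a motif of 10 letters that is its own reverse complement and so reads alike on both strands, was found without a mismatch in the windows of Ccng1 and Gadd45a, against 7.98% of the 33469 promoters in the table. The 250 bases before the start are printed for these genes, for Fas, the member with the largest fold difference, and for Phlda3, whose groups overlapped. Capitals mark the half-site.
Ccng1 (chr10:25684877-25685126, minus strand): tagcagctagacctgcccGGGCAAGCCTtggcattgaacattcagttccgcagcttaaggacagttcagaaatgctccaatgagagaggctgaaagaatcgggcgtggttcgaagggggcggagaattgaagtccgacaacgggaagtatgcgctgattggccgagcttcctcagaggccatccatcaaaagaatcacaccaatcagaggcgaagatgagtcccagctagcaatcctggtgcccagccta
Gadd45a (chr4:97486800-97487049, minus strand): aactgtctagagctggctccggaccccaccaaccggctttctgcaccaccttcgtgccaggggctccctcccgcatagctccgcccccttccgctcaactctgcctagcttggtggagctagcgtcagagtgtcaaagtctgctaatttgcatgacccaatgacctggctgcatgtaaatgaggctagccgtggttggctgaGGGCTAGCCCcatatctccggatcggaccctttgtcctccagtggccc
Fas (chr1:241211905-241212154, plus strand): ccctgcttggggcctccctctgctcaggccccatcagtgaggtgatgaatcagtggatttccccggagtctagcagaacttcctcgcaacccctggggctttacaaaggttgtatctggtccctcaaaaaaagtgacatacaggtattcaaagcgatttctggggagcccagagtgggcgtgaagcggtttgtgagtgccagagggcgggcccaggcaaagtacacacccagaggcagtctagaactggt
Phlda3 (chr13:49744753-49745002, plus strand): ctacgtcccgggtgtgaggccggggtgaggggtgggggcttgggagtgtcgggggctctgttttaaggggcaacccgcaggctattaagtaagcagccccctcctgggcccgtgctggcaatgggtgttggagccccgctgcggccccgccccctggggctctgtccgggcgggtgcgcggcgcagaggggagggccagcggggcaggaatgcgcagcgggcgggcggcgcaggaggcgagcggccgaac

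In Ccng1 the half-site GGGCAAGCCT began 232 bases before the start, and the 10 bases directly before it, AGACCTGCCC, formed a pair with it that departs from 2 consensus half-sites at 1 base. Such a pair without a spacer, with at most 1 mismatch, was held by 0.0717% of all promoters. In Gadd45a the half-site GGGCTAGCCC began 48 bases before the start and paired, with 1 mismatch and a spacer of 11 bases, with AGGCTAGCCG. A pair with at most 1 mismatch and a spacer of 0 to 13 bases was held by 1.00% of all promoters. The windows of Mdm2, Sesn2, Fas and Phlda3 held no full half-site, which says only that these letters are not in these windows. All 6 windows also held the GC box GGGCGG on one strand, with no overlap with a half-site, against 33.1% of all promoters, and their GC content was 56.7% to 72.3% against a median of 51.7%. These are matches of letters, and no binding was measured in the count table.

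The counts summed to 74024323 to 96185890 per sample, and 12446 genes passed a filter of 10 counts in 2 or more samples. The test was edgeR's quasi-likelihood test. Levels are given as CPM, a gene's counts relative to the library total scaled by TMM factors, and a gene was called at an adjusted p (Benjamini-Hochberg, over all genes tested) under 0.05 and a fold change of at least 1.3. CPM is not corrected for gene length, so levels are compared between samples and not between genes, and a gene named for a high CPM is one with many reads. The SC marker S100b (2027 to 2357 CPM) was high in all 4 samples, and none of the 9 SC markers tested was called, with Sox10 highest in Lenti-AS 1 (162.8 CPM) and at 61.2 to 77.1 CPM in the others. Egr2, the gene from whose promoter the antisense RNA is named, had 49.2 and 42.1 CPM in Lenti-GFP and 61.2 and 54.0 CPM in Lenti-AS, so both Lenti-AS samples were higher. Its log2 fold change of 0.33 did not pass in edgeR (adjusted p = 0.152), and in DESeq2 the adjusted p was 0.0336 with a fold under 1.3. The table holds no row for Egr2-AS, whose level was therefore not checked. The samples of each group were not alike in all respects. The 10 globin genes in the table summed to 3453 CPM in Lenti-AS 2 and to 4.87 to 10.9 CPM in the other 3 samples, and Col1a1, a collagen gene, had 2131 CPM in Lenti-AS 1 and 290.1 CPM in Lenti-AS 2. The 7 fibroblast markers in the table summed to 998.6 and 858.3 CPM in Lenti-GFP and 2475 and 413.5 CPM in Lenti-AS, nearly all of it from the collagens Col1a1 and Col1a2, while Dpt, Thy1, Lum and Dcn stayed at or under 0.0321 CPM. The 8 macrophage markers summed to 3.52 to 4.60 CPM. The 7 endothelial markers, nearly all of it Tek, summed to 22.0 and 21.8 CPM in Lenti-GFP and 16.9 and 16.3 CPM in Lenti-AS. None of these marker genes was called by edgeR, Cd68 and Tek had an unadjusted p under 0.05, and DESeq2 called Tek lower. The part of these differences in the levels of the p53 targets was not tested. In bulk samples, fewer cells of a type and less RNA per cell cannot be told apart.

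To describe the p53 targets, the levels of the 9 genes were first compared between Lenti-AS and Lenti-GFP. Ccng1, Gadd45a, Sesn2, Zmat3 and Fas, 5 of the 9 genes, were higher in Lenti-AS and passed the test, with fitted folds between 1.34 and 1.84. Mdm2 was 1.22-fold higher and did not pass, Bbc3 was 1.45-fold higher with a wide spread and did not pass, and Bax and Phlda3 had folds of 1.04 and 0.978. Among all genes tested, 1.31% were called higher. In 8 of the 9 genes both Lenti-AS samples exceeded both controls, a pattern found in 27.7% of all genes tested. Since the genes were listed with this contrast known, nothing is read from these counts.

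**Figure D1:**
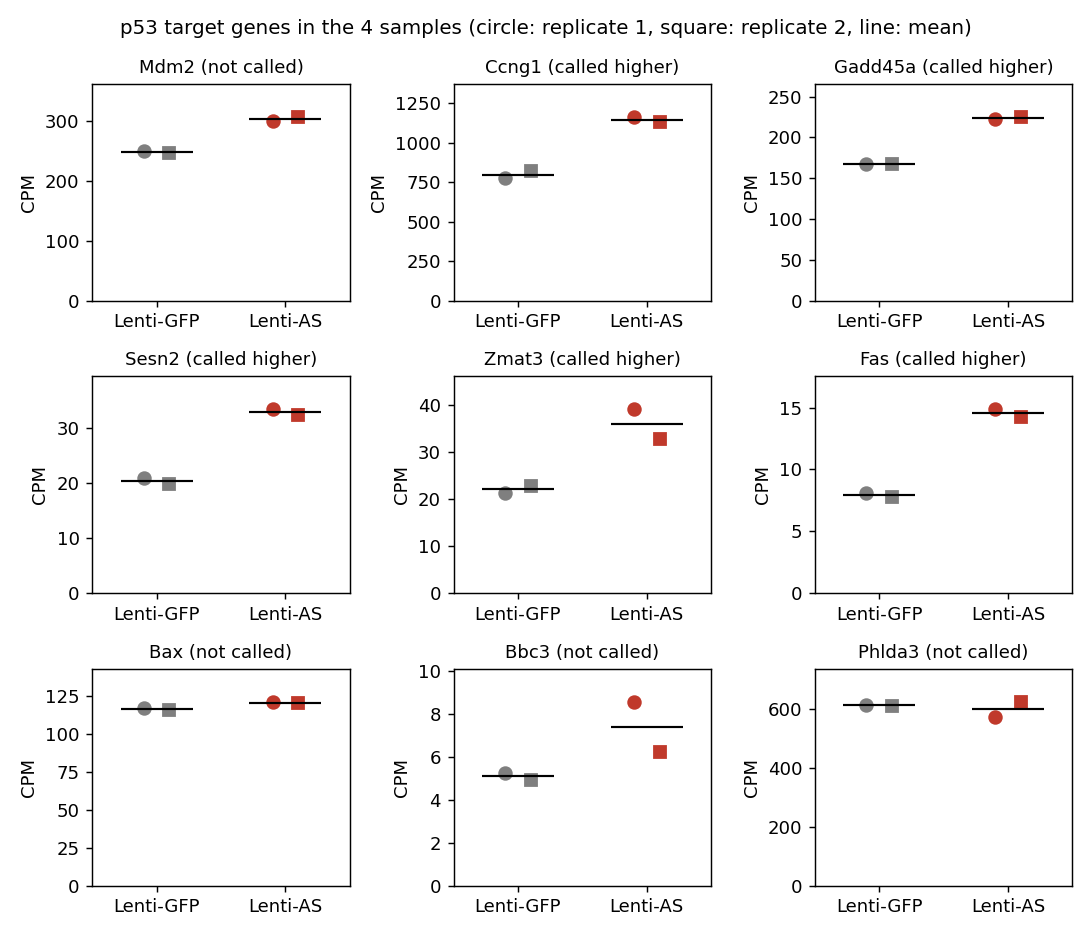
Level of each of the 9 p53 target genes in the 4 samples, in TMM-scaled CPM on axes that start at 0. Circles are replicate 1, squares are replicate 2 and lines are the means of 2 samples. The Lenti-AS samples lie above the Lenti-GFP samples in every panel except Phlda3. The nearest samples are 0.963 CPM apart in Bbc3, 3.06 CPM in Bax and 309.2 CPM in Ccng1.

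The feedback genes of the pathway were measured at high counts. Mdm2 had 250 and 245.6 CPM in Lenti-GFP and 299.4 and 306.6 CPM in Lenti-AS. The groups did not overlap, and the nearest samples lay 49.4 CPM apart against 4.40 CPM between the controls and 7.19 CPM within Lenti-AS. The difference amounted to a log2 fold change of 0.29 (standard error 0.05, edgeR's quasi-likelihood test, adjusted p = 0.0540). DESeq2 gave an adjusted p of 9.99e-05, but the fold stayed under 1.3, so Mdm2 was called by neither test. Ccng1 encodes cyclin G1, which recruits a phosphatase to Mdm2. It had 775.3 and 819.4 CPM in Lenti-GFP and 1165 and 1129 CPM in Lenti-AS, with 72385 to 102116 counts, the most of the 9 genes. Both Lenti-AS samples were higher, by a gap of 309.2 CPM against at most 44.1 CPM within a group. Ccng1 rose by a log2 fold change of 0.52 (standard error 0.06, edgeR's quasi-likelihood test, adjusted p = 0.0232).

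The genes of growth arrest and stress control both passed. Gadd45a encodes a small protein that binds Cdk1 and PCNA and acts in growth arrest and DNA repair. Its levels were 168.1 and 167.0 CPM in Lenti-GFP and 223.2 and 225.4 CPM in Lenti-AS. The replicates were nearly equal, with 1.14 and 2.26 CPM between them, and the groups were 55.1 CPM apart. The log2 fold change of Gadd45a was 0.42 (standard error 0.05, edgeR's quasi-likelihood test, adjusted p = 0.0252). Sesn2 encodes sestrin 2, a leucine sensor that restrains mTORC1 and limits oxidative damage. It had 20.9 and 19.8 CPM in Lenti-GFP and 33.5 and 32.4 CPM in Lenti-AS, again with no overlap. Sesn2 rose by 0.69 on the log2 scale (standard error 0.07, edgeR's quasi-likelihood test, adjusted p = 0.0191), the smallest adjusted p of the 9 genes. Zmat3 encodes a zinc finger protein that binds RNA and regulates splicing. It had 21.4 and 22.7 CPM in Lenti-GFP and 39.1 and 32.8 CPM in Lenti-AS, so that the Lenti-AS samples differed from one another by 6.25 CPM, less than the 10.1 CPM between the groups. Its log2 fold change was 0.71 (standard error 0.10, edgeR's quasi-likelihood test, adjusted p = 0.0368).

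The genes of cell death differed among themselves. Fas encodes the death receptor that binds Fas ligand. It had 8.10 and 7.74 CPM in Lenti-GFP and 14.9 and 14.3 CPM in Lenti-AS, with 756, 734, 1303 and 1072 counts. Both Lenti-AS samples stood well above the controls, and the log2 fold change of Fas was 0.88 (standard error 0.09, edgeR's quasi-likelihood test, adjusted p = 0.0232). Bax, which opens pores in the outer mitochondrial membrane, had 117.3 and 116.2 CPM in Lenti-GFP and 121.5 and 120.3 CPM in Lenti-AS. Its groups did not overlap, but they were only 3.06 CPM apart, and the log2 fold change was 0.05 (standard error 0.05, edgeR's quasi-likelihood test, adjusted p = 0.607). Bbc3 encodes Puma, a BH3-only protein that activates Bax. It had 5.25 and 4.94 CPM in Lenti-GFP and 8.57 and 6.21 CPM in Lenti-AS, with 490, 468, 751 and 467 counts. The 2.36 CPM between the Lenti-AS samples was more than the 0.963 CPM between the groups, and the log2 fold change of 0.54 (standard error 0.18) did not pass (edgeR's quasi-likelihood test, adjusted p = 0.174). Phlda3, a PH domain protein that competes with Akt for membrane lipids, had 614.3 and 609.2 CPM in Lenti-GFP and 572.5 and 624.3 CPM in Lenti-AS. The groups overlapped, with a log2 fold change of -0.03 (standard error 0.06, edgeR's quasi-likelihood test, adjusted p = 0.793). With library totals in place of TMM factors its value was 0.000166, just above 0.

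Of the 4 genes that did not pass, Mdm2 was nearest to the adjusted p threshold and Gadd45a, at 1.34-fold, was the called gene nearest to the fold limit. The same 5 genes were called by DESeq2, which called 3.92% of all genes higher, and in all 10 alternatives of tool, scaling, filter, test and globin genes. Leaving out 1 sample leaves a group of 1, which is assumed to vary like the other group, so these fits show the folds and say little on the calls. Without Lenti-GFP 1 the adjusted p of the 5 genes lay between 0.183 and 0.328, and without Lenti-GFP 2 between 0.264 and 0.431, in edgeR's quasi-likelihood test. In each of these fits 0 of all 12446 genes were called higher, and 7.09% and 5.01% were higher at an unadjusted p under 0.05, the 5 genes among them. Their log2 fold changes were 0.42 to 0.91. Without Lenti-AS 1 the 5 genes were called, where 4.58% of all genes were called higher, and without Lenti-AS 2 the 5 genes and Bbc3 were called, where 10.2% of all genes were. The counts of Gadd45a, Sesn2, Fas and Phlda3 may include reads of another annotated RNA inside the same interval, since the strand setting of the counting is not given in the sources used here.

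The Lenti-AS samples were then compared with one another. With 2 samples a group, a gene passes the test more readily where they are close. Close values in the called genes therefore follow in part from the call. The Lenti-AS 1 level was 0.990 to 1.19 times that of Lenti-AS 2 in the 5 called genes and 1.38 times in Bbc3. Bbc3 was higher in Lenti-AS 1 than in Lenti-AS 2. Its fitted value moved with these samples, with a log2 fold change of 0.29 without Lenti-AS 1 (adjusted p = 0.207) and 0.75 without Lenti-AS 2 (adjusted p = 0.000174), by edgeR's quasi-likelihood test. Cdkn1a, a p53 target outside the 9 genes, was called higher although its ratio of Lenti-AS 1 to Lenti-AS 2 was 1.49. Tp63 and Tp73, which encode relatives of p53, stayed under 1 CPM in all samples, and neither was called by edgeR, with 0 at an unadjusted p under 0.05. DESeq2 gave no adjusted p for either.

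**Figure D2:**
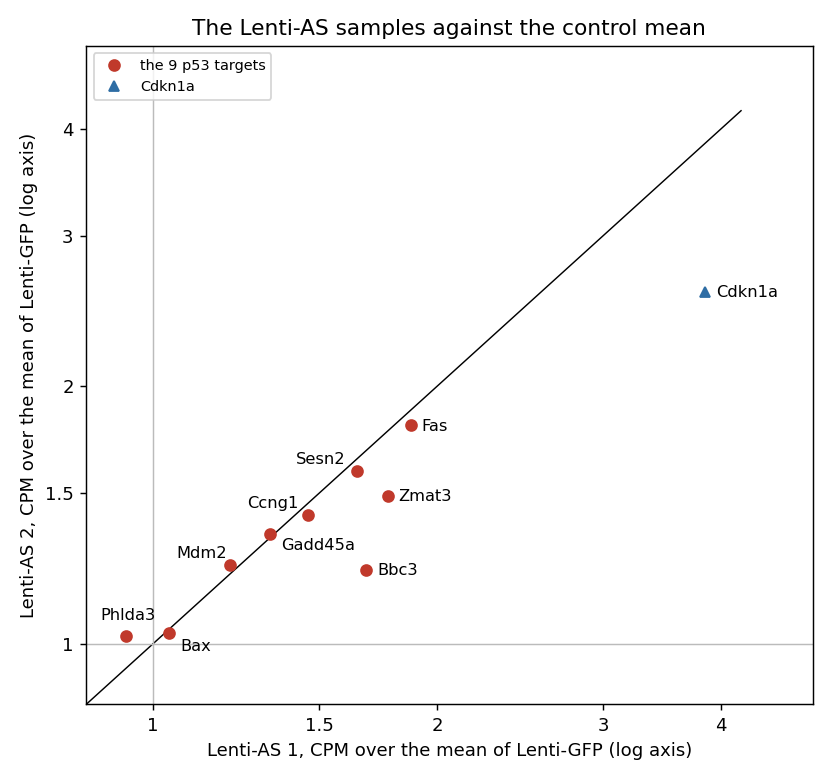
Level of each gene in Lenti-AS 1 (x axis) and Lenti-AS 2 (y axis) as a multiple of the mean of the 2 Lenti-GFP samples, on log axes. Circles are the 9 p53 targets, the triangle is Cdkn1a, the black line marks equal values and the grey lines mark the control mean. Most targets lie near the line, while Bbc3 is at 1.68 in Lenti-AS 1 and 1.22 in Lenti-AS 2 and Cdkn1a at 3.85 and 2.58.

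To set the 9 genes beside the rest of the pathway, 52 other p53 targets were listed from textbook knowledge, of which 44 were tested. The list was written with earlier results known, Cdkn1a among them. Of the 44, 4 were called higher (Cdkn1a, Ephx1, Tap1 and Psrc1) and 1 lower (Cd82), where 1.31% and 0.667% of all genes were called in these directions. At an unadjusted p under 0.05 there were 14 higher and 5 lower, against 12.5% and 9.37% of all genes tested. These shares are the background for the same count in every list. Both Lenti-AS samples lay above both controls in 21 of the 44 genes and below them in 8, against 27.7% and 27.2% of all genes tested. The median log2 fold change of the 44 genes was 0.0665, and 0.0358 without Cdkn1a, beside 0.0071 over all genes tested and 0.52 over the 9 genes described above. The median of the 44 genes was 0.143 without Lenti-AS 1, 0.112 without Lenti-AS 2, 0.102 with no filter on low counts and 0.0391 with a filter of 1 CPM in 2 samples. Of the 44 genes, 25 had a value above 0 and 19 below.

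**Figure D3:**
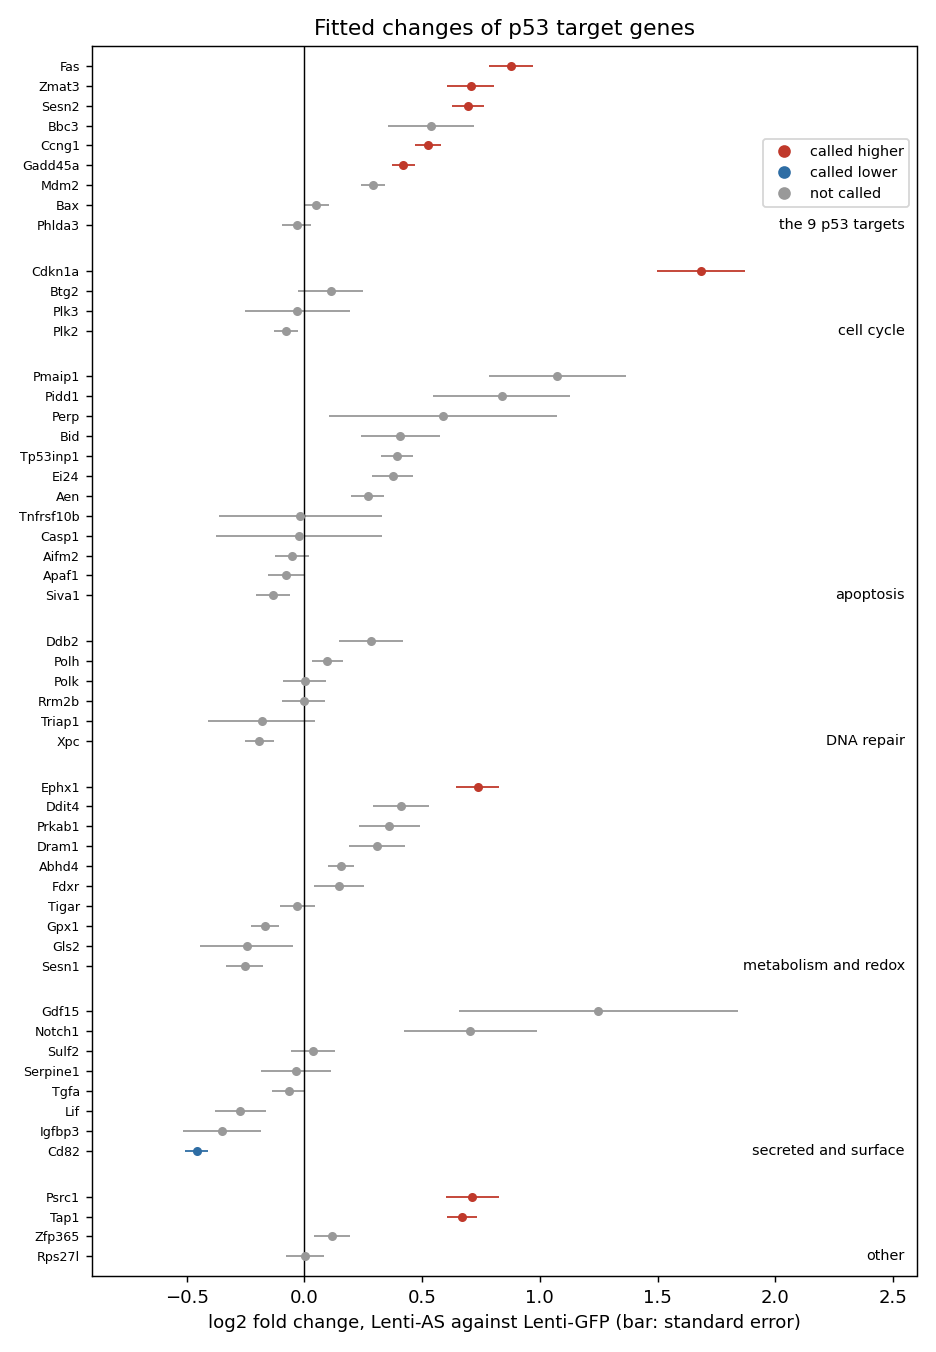
Fitted log2 fold change of Lenti-AS against Lenti-GFP, with its standard error, for the 9 p53 targets and the 44 other targets tested, grouped by role. Red points were called higher, blue points lower and grey points were not called. Cdkn1a has the largest value, 1.68, and Cd82 the only called fall, -0.46.

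Among the targets that act on the cell cycle, Cdkn1a, the inhibitor of cyclin-dependent kinases, had 16.8 and 15.2 CPM in Lenti-GFP and 61.4 and 41.2 CPM in Lenti-AS. The level rose in both Lenti-AS samples, 3.85 and 2.58 times the control mean (log2 fold change 1.68, standard error 0.19, edgeR's quasi-likelihood test, adjusted p = 0.0247). Plk2, a kinase of the centrosome cycle and the uncalled target with the most reads, had 1224 and 1212 CPM in Lenti-GFP and 1131 and 1178 CPM in Lenti-AS and did not pass (log2 fold change -0.08). Of the 12 apoptosis genes tested, 0 were called by edgeR's quasi-likelihood test, 5 had an unadjusted p under 0.05, all higher, and DESeq2 called 1 higher. Of the 12, 7 had a log2 fold change above 0 and 5 below. The gene DESeq2 called was Tp53inp1, with 50.7 and 52.4 CPM in Lenti-GFP and 68.8 and 66.7 CPM in Lenti-AS. Its log2 fold change was 0.39 (edgeR's quasi-likelihood test, adjusted p = 0.0506, and DESeq2, adjusted p = 2.53e-05). The apoptosis genes with the largest log2 fold changes rested on few reads. Pmaip1, which encodes the BH3-only protein Noxa, had 0.428 and 0.475 CPM in Lenti-GFP and 0.833 and 1.08 CPM in Lenti-AS, a log2 fold change of 1.08 (standard error 0.29, edgeR's quasi-likelihood test, adjusted p = 0.119). Pidd1, a death domain protein that activates caspase-2, had 0.878 and 0.802 against 1.83 and 1.17 CPM (log2 fold change 0.84).

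The 6 tested targets of DNA repair had a median log2 fold change of -0.0004, and 0 were called by edgeR or DESeq2, with 1 at an unadjusted p under 0.05. Xpc, which recognises damage in nucleotide excision repair, had 106.0 and 105.4 CPM in Lenti-GFP and 89.4 and 95.8 CPM in Lenti-AS. Ddb2, which acts in the same pathway, had 5.28 and 4.83 CPM against 5.85 and 6.45 CPM. Neither passed. Among 10 targets of metabolism and redox control, Ephx1, an epoxide hydrolase that detoxifies xenobiotics, rose from 12.9 and 14.7 CPM to 22.8 and 23.2 CPM (log2 fold change 0.74, standard error 0.09, edgeR's quasi-likelihood test, adjusted p = 0.0276). Abhd4, a lipase, and Gpx1, a glutathione peroxidase, were, after Plk2, the uncalled genes of the 44 with the most reads, with log2 fold changes of 0.15 and -0.17. DESeq2 added Ddit4, an inhibitor of mTORC1 (log2 fold change 0.41).

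Of the 8 secreted and surface targets, Cd82, a tetraspanin of the cell surface, fell from 631.6 and 625.8 CPM in Lenti-GFP to 452.5 and 463.2 CPM in Lenti-AS, a log2 fold change of -0.46 (standard error 0.05, edgeR's quasi-likelihood test, adjusted p = 0.0241). In the last group, Tap1, a transporter of peptides for antigen presentation, had 21.2 and 21.8 CPM in Lenti-GFP and 34.9 and 33.5 CPM in Lenti-AS. Psrc1, a spindle protein, had 5.88 and 5.80 CPM against 9.31 and 9.86 CPM. Both rose, with log2 fold changes of 0.67 and 0.71 (edgeR's quasi-likelihood test, adjusted p = 0.0191 and 0.0450). Cdkn1a, Ephx1, Tap1 and Psrc1 are each also controlled outside the p53 pathway. The part of p53 or of other factors in the levels of the called targets was not tested.

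The regulators of p53 showed no call. Of 15 tested, 0 passed in edgeR's quasi-likelihood test or DESeq2, 3 had an unadjusted p under 0.05 in the higher and 1 in the lower direction, and the median log2 fold change was 0.0311, which moved to 0.0905 without Lenti-AS 1, 0.0088 without Lenti-AS 2, 0.0664 without Lenti-GFP 1 and 0.0032 without Lenti-GFP 2. Those with the most reads were Rpl5 and Rpl11, ribosomal proteins that bind Mdm2, and Usp7, a deubiquitinase of Mdm2 and p53. Their log2 fold changes were -0.17, -0.09 and 0.0021. The largest values belonged to Hipk2, a kinase of p53, with 3.27 and 3.57 CPM in Lenti-GFP and 7.78 and 4.28 CPM in Lenti-AS (log2 fold change 0.82), and to the acetyltransferase gene Crebbp, with 65.9 and 58.4 CPM against 80.7 and 79.4 CPM (log2 fold change 0.36). Hipk2 was thus high mainly in Lenti-AS 1. For Crebbp the adjusted p in DESeq2 was 0.00146 with a fold under 1.3.

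Paralogues of the 9 genes were compared because they share sequence with them. Of 7 tested, 0 were called by edgeR's quasi-likelihood test, 3 had an unadjusted p under 0.05 higher and 2 lower, and DESeq2 called Gadd45b higher. Gadd45b had 38.2 and 39.4 CPM in Lenti-GFP and 49.5 and 54.6 CPM in Lenti-AS, a log2 fold change of 0.42 (standard error 0.08, edgeR's quasi-likelihood test, adjusted p = 0.0577), close to the 0.42 of Gadd45a. The paralogues Sesn1 and Ccng2, named after their values were seen, had values below 0. Sesn1 is also among the 44 other p53 targets tested above. It had 35.4 and 35.7 CPM in Lenti-GFP and 28.1 and 31.6 CPM in Lenti-AS. Its log2 fold change was -0.25, beside 0.69 for Sesn2. Ccng2 had 116.8 and 119.8 CPM against 97.1 and 100.02 CPM, a log2 fold change of -0.26 beside 0.52 for Ccng1. Sesn1 and Ccng2 did not pass (edgeR's quasi-likelihood test, adjusted p = 0.148 and 0.0809). In DESeq2 their adjusted p-values were 0.0805 and 0.00285, and the fold of Ccng2 was under 1.3, so neither was called. Phlda1, a paralogue of Phlda3, had 41.7 and 35.6 CPM against 67.1 and 40.4 CPM, again high in Lenti-AS 1. The differences between paralogues were not tested.

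The partners of Fas, Bax and Bbc3 in cell death were also listed. Of the 13 BCL2 family genes tested, 0 were called by edgeR or DESeq2, and 5 had an unadjusted p under 0.05, all higher. Hrk, a BH3-only gene, had the largest log2 fold change, 1.46, at 0.127 to 0.426 CPM, with 12 to 32 counts in a sample. DESeq2 gave no adjusted p for Hrk, Pmaip1, Bok and Bik. Of 11 genes of the death receptor pathway, edgeR called 0, 2 had an unadjusted p under 0.05 higher and 1 lower, and DESeq2 called Tnfrsf1a, a receptor of tumour necrosis factor, higher. Tnfrsf1a had 15.9 and 15.2 CPM in Lenti-GFP and 30.1 and 17.7 CPM in Lenti-AS. Faslg, the ligand of Fas, had 0.114 to 0.214 CPM in the 4 samples, 10 to 20 counts each.

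Because Sesn2 also responds to Atf4, 16 genes of the amino acid response, Sesn2 included, were counted. Sesn2, chosen with the contrast known, and Asns were called higher by edgeR, where 1.31% of all genes were. Of the 16, 8 had an unadjusted p under 0.05, all higher, against 12.5% of all genes in that direction. Asns, asparagine synthetase, had 14.0 and 13.6 CPM in Lenti-GFP and 20.9 and 19.4 CPM in Lenti-AS, a log2 fold change of 0.55 (standard error 0.08, edgeR's quasi-likelihood test, adjusted p = 0.0394). Atf4 itself had 179.2 and 168.7 CPM against 173.5 and 181.7 CPM, with overlapping groups. DESeq2, which called 3.92% of all genes higher, added Ddit4 and Cebpb. The part of this response in the level of Sesn2 was not tested.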

How the data were processed

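RNA-seq of rat SCs was used from 2 Lenti-GFP and 2 Lenti-AS samples, grouped by their titles. The authors mapped paired reads of 50 bp to rn6 (hisat2 in the methods, GSNAP in the submitters' processing notes), assigned them to RefSeq exons by featureCounts, and deposited raw counts per gene. Versions, the strand setting and the handling of reads with several matches are not given in the sources used here. One row that repeats the header was dropped. Counts were tested in R 4.3.3 with edgeR 4.0.16 (TMM, glmQLFit, glmQLFTest), tried on simulated data, with the filter, adjustment and limits given in the report. The standard error was computed from the F statistic. The members, lists and tests were chosen with earlier results of these data known. Named genes are the 9 members, called genes of the lists and, of uncalled ones, the 3 with the highest mean CPM in the target and in the regulator lists and the 2 with the largest log2 fold change where a list had no call. Names outside this rule, chosen after their values were seen, are the cell type markers, Bok, Bik, Ddit4, Cebpb, Tp53inp1, Sesn1, Ccng2, Tp63, Tp73 and Atf4. Some genes of the lists are not reported here. Alternatives were DESeq2 1.42.0 (which gave no adjusted p for 2413 genes), limma-voom (limma 3.58.1), other scalings, filters and tests, a replicate block, leaving out each sample and leaving out the globin genes. Promoters were RefSeq sequences of GRCr8, matched by symbol. The precision of a level is limited by 467 to 102116 counts per gene and sample for the 9 genes. No protein, ATAC-seq or Hi-C data were analysed here.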

Additional observations from a re-analysis of the deposited data

How the results depend on the processing

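The number of the 9 genes called was 5 in all 10 alternatives of tool, scaling, filter, test and globin genes, with adjusted p-values of the 5 from 5.31e-13 to 0.0408, and Mdm2 had an adjusted p under 0.05 in 4 of them, always under the fold limit. Over all genes, DESeq2 called 488 higher and 139 lower and the likelihood ratio test 374 and 147, against 163 and 83. Under a replicate block there were 3 genes called higher and 14 lower by edgeR's quasi-likelihood test, and 0 of the 9 genes. The 5 genes called without the block had an unadjusted p under 0.05 there and an adjusted p of 0.0680 to 0.0877. Mdm2 and Bbc3 also had an unadjusted p under 0.05 in this fit, with adjusted p = 0.148 and 0.204. Of the other p53 targets, 1 was called higher (Cdkn1a) and 0 lower. The deviations of samples with the same number were not related (correlation -0.0176 over genes), and the labels state no shared culture or day. With 2 samples per group this value cannot exclude a pairing, so whether the numbers pair the samples is not known. Leaving out one sample gave 0 to 1266 genes called higher and 1 to 271 lower, 0 to 6 of the 9 genes, and 0 to 10 higher and 0 to 2 lower among the other targets. The log2 fold change of Phlda3 changed sign with library totals (0.000166) and was -0.10 to 0.0292 with one sample left out. Library totals moved the median of all genes to 0.0389. With 2 samples per group, low genes such as Hrk, Pidd1 and Faslg are limited by few counts.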
